A study of Mus musculus with 16 samples.

Results

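The 9 RNAs from protein-coding genes (pcRNAs) described here, *Lnpep*, *Nkain2*, *Cntn4*, *Phtf1*, *Mei4*, *Ythdc1*, *Wnk3*, *Rasa1* and *Hspa14*, were selected on their measured pairs, as those with far fewer listed RNA–DNA pairs after selection of chromatin for H3K27me3 than before it. *Lnpep*, *Nkain2*, *Cntn4*, *Phtf1* and *Mei4* had the lowest log2 ratios among pcRNAs listed in both libraries with at least 50 Input pairs. *Ythdc1*, *Wnk3*, *Rasa1* and *Hspa14* were among the pcRNAs with the most Input pairs that the H3K27me3-RADIP table does not list. They are 9 of 10736 pcRNAs listed in either library. Since the difference between the libraries chose them, it is a description here and carries no test.

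PGK12.1 mouse embryonic stem cells (mESCs) were fixed with 1% formaldehyde. In Input, RNA was ligated to nearby DNA and every such pair could be read, and in H3K27me3-RADIP the ligated material was precipitated with an antibody against H3K27me3. Both conditions came from the same untreated cell line, and each is deposited as 1 merged table from 8 labelled libraries. The paper's results report 4 biological replicates per condition. Because the tables are merged, no spread between replicates can be given, and every interval below is a 95% interval for counting error alone. In such bulk cultures, fewer cells with an RNA and less of that RNA per cell cannot be told apart.

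H3K27me3 is the trimethyl mark that Polycomb repressive complex 2 places on histone H3, and it lies over repressed developmental genes and broad facultative heterochromatin. Many RNAs on chromatin are nascent transcripts still close to the gene they come from, so their pairs fall mostly on the gene itself and its flanks, and most of their tags are intronic. The antibody step is meant to keep pairs whose DNA carries the mark. The 9 genes have unrelated products: a cell-surface and endosomal aminopeptidase, 2 neuronal membrane proteins, a membrane protein named as a putative transcription factor, a meiotic recombination factor, a nuclear reader of methylated adenosine, a kinase of ion transport, a Ras GTPase-activating protein and a chaperone.

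The Input table held 1305107 pairs, and 1415135 were listed in H3K27me3-RADIP. A table lists a pair only when its combination of RNA and 25-kb DNA bin passed a q-value of 0.1, and the smallest listed combination had 7 pairs in both libraries. In H3K27me3-RADIP, pcRNA combinations of 8 pairs reached q-values up to 0.0994, whereas the highest q-value of any combination of 9 pairs was 0.0304. An unlisted bin may thus hold up to 8 pairs, and a pcRNA without listed pairs is not shown to be absent. For this reason no fold change is given for such RNAs, the log2 ratios of other RNAs compare listed pairs with unlisted bins counted as 0, and a second value is given for each member: its count with every unlisted Input bin filled to the limit. The intervals of the log2 ratios also count unlisted bins as 0. For RNAs that are not members no such second value is given, so an interval that excludes 0 does not by itself show a difference beyond the listing limit. The q-value was set almost wholly by the RNA and the number of pairs, with a single value in 11669 of 11677 cases where a pcRNA had several H3K27me3-RADIP combinations of the same size. The limit was therefore taken as 7 pairs for *Mei4* and *Cntn4*, which had a bin of 8 pairs listed in H3K27me3-RADIP, and as 8 for the others. Markers of stem cells were listed for 8 of 15 genes in Input with 11361 pairs in total and for 10 of 15 in H3K27me3-RADIP with 12511, while *Pou5f1*, *Nanog*, *Dppa4*, *Tdgf1* and *Utf1* were listed in neither. Most of these pairs came from *Jarid2* (7046 and 7961), *Esrrb* (2388 and 2500) and *Tet1* (1302 and 1395). Markers of other cell types were listed for 3 of 12 genes with 49 pairs in Input and 5 of 12 with 96 in H3K27me3-RADIP.

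Together the 9 RNAs had 676 Input pairs, against 48 after the selection. Between 48 and 147 pairs were listed for each in Input, and at most 12 in H3K27me3-RADIP. With the trimmed mean of M values (TMM) scaling over the 8158 pcRNAs found in both libraries, the 5 members with pairs in both had log2 ratios from -3.65 to -2.96. A log2 ratio of -0.5 or lower was found for 21.9% of these 8158 pcRNAs, and one of 0.5 or higher for 20.2%. The other 4 members were not listed in H3K27me3-RADIP, as were 12.2% of the 9288 pcRNAs of Input and 0.133% of the 3748 pcRNAs with at least 48 Input pairs. The rule used these same values, so nothing is read from the shares. Just outside the choice by fold were *Tmem167* with 64 and 9 pairs (-2.86), *Klf8* with 106 and 15 (-2.85) and *Wdpcp* with 56 and 8 (-2.84). Among RNAs of Input alone, *Efhc2* had 47 pairs, *Sclt1* 46 and *Mageb18* 44, against 48 for *Hspa14*, and *Kcnt2*, which is not a member, had 109.

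**Figure D1:**
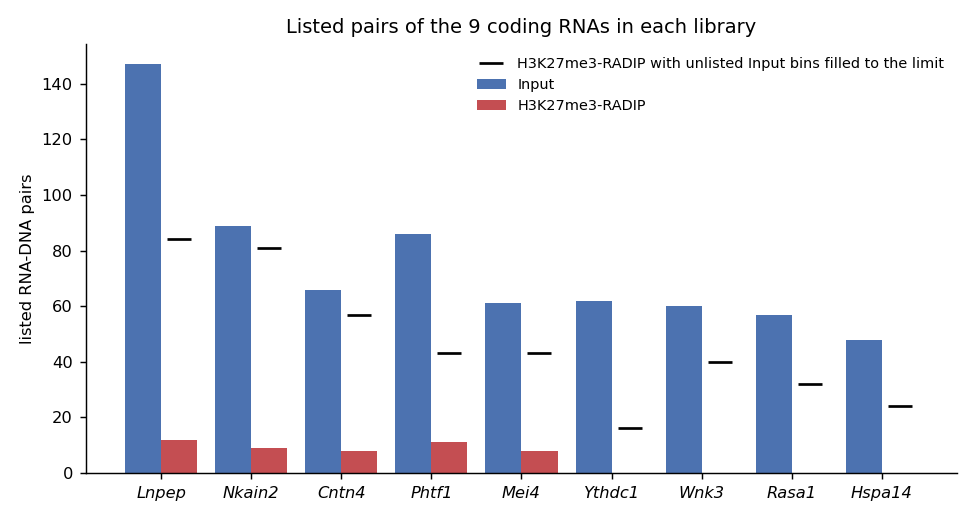
Listed RNA–DNA pairs (vertical axis, number of pairs) of the 9 pcRNAs in Input (blue bars) and H3K27me3-RADIP (red bars), with a black dash at the H3K27me3-RADIP count that would result if each unlisted Input bin had held the most pairs it can hold unlisted (7 for *Mei4* and *Cntn4*, 8 for the others). *Lnpep* has 147 and 12 pairs, and the dash comes closest to the Input bar for *Nkain2* (81 against 89) and lies farthest below it, as a share, for *Ythdc1* (16 against 62).

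The 676 Input pairs fell into 51 combinations of an RNA and a bin, of which 3 were also listed in H3K27me3-RADIP (5.88%). The members were chosen for few or no listed H3K27me3-RADIP pairs, so their low shares here follow largely from that choice. Nothing is read from them. Of all pcRNA combinations of Input, 23.3% were not listed in H3K27me3-RADIP. The kept share of all pcRNA combinations depended on their size: 48.8% of those with 7 to 9 pairs were listed again, 67.3% with 10 to 12, 86.1% with 13 to 19 and 98.9% with 20 or more. Of the members' combinations, 35 of 51 had 12 or fewer pairs. Those listed again numbered 0 of 13, 1 of 22, 1 of 9 and 1 of 7 in the same ranges. The 7 largest lay in *Lnpep*, *Phtf1*, *Ythdc1* and *Hspa14*. H3K27me3-RADIP had 5 member combinations in all, each the sole one of its RNA, with 8 to 12 pairs and q-values from 0.000139 to 0.0391. Those of *Lnpep*, *Phtf1* and *Mei4* were in Input bins, and those of *Nkain2* and *Cntn4* were in bins that Input does not list.

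**Figure D2:**
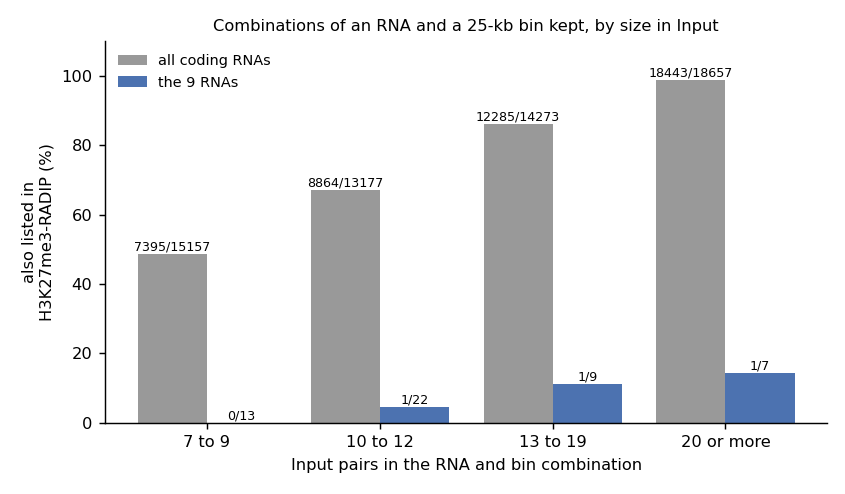
Percent of the combinations of an RNA and a 25-kb bin in Input that H3K27me3-RADIP also lists (vertical axis), by the number of Input pairs in the combination (horizontal axis), for all pcRNAs (grey) and the 9 members (blue), with the counts above the bars. The share of all pcRNA combinations goes from 48.8% to 98.9% with size, and for the members 1 of 7 combinations of 20 or more pairs was listed again. The members were chosen for few H3K27me3-RADIP pairs, so their low shares follow largely from the choice.

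How far the listing limit can reach differed between the members. With each unlisted Input bin filled to the limit, the log2 ratio would be -1.99 for *Ythdc1*, -1.03 for both *Phtf1* and *Hspa14*, -0.87 for *Rasa1*, -0.84 for *Lnpep*, -0.62 for *Wnk3* and -0.54 for *Mei4*, all past -0.5. It would be -0.24 for *Cntn4* and -0.17 for *Nkain2*, which is not past it. With 8 pairs per bin for every RNA, *Mei4* would have -0.38. These last 3 RNAs have long genes and thinly filled bins: no Input bin of *Cntn4* or *Mei4* held more than 11 pairs and none of *Nkain2* more than 13. For *Cntn4* and *Nkain2* a log2 ratio of -0.5 or lower does not follow from the listed pairs alone. In *Ythdc1*, by contrast, 2 bins held all 62 pairs.

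*Lnpep* encodes the insulin-regulated aminopeptidase, a membrane enzyme that travels with glucose transporter vesicles and cleaves oxytocin and vasopressin. It lies on the minus strand at chr17:17521410-17625050 (mm10, ENSMUSG00000023845.7, 104 kb). Input listed 147 pairs and H3K27me3-RADIP 12, a log2 ratio of -3.65 (-4.63 to -2.80). Its 10 Input bins ran from the bin at its start and upstream flank, with 14 pairs, across the gene, with 12, 22, 32, 20 and 9 pairs, to 4 bins downstream, with 8, 8, 11 and 11. The fullest, chr17:17550001-17575000 with 32 pairs and a deposited q-value of 9.32e-19, was not listed in H3K27me3-RADIP. The next toward the 3′ end, with 20 Input pairs, was the one bin that remained listed and held all 12 pairs. The median distance between tags was 30.4 kb before the selection (interquartile range 8.91 to 82.7, longest 245 kb) and 28.4 kb after it. Of the DNA tags in Input, 88 of 147 lay in the gene, 45 downstream and 14 upstream, and all 12 of H3K27me3-RADIP lay in the gene.

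*Nkain2* encodes a membrane protein that interacts with the beta subunit of the Na,K-ATPase and is expressed mainly in brain. Its gene is the longest of the set, on the minus strand at chr10:31689310-32890462 (ENSMUSG00000069670.8, 1201 kb). The libraries listed 89 and 9 pairs, a log2 ratio of -3.34 (-4.51 to -2.35). The 9 Input bins held 8 to 13 pairs each, and 6 of them were centred within 253 kb of the gene start. None was listed in H3K27me3-RADIP, which had its 9 pairs in chr10:32850001-32875000, an unlisted bin of Input between bins of 11 and 13 pairs. The longest distances were 703 kb for Input and 262 kb for H3K27me3-RADIP, with medians of 25.9 and 21.8 kb.

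*Cntn4* encodes contactin 4, a neuronal adhesion molecule of the immunoglobulin superfamily anchored to the membrane by a lipid. The gene spans chr6:105677660-106699310 on the plus strand (ENSMUSG00000064293.14, 1022 kb). Input listed 66 pairs of it and H3K27me3-RADIP 8, for a log2 ratio of -3.08 (-4.35 to -2.01). Its 7 Input bins, with 8 to 11 pairs each, were scattered from 59.8 to 610 kb past the gene start, and the sole H3K27me3-RADIP bin was centred 34.8 kb past it. The median distance was 8.21 kb in Input, although 13 of 66 pairs were over 100 kb apart and the longest spanned 732 kb.

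*Phtf1* encodes a membrane protein of the endoplasmic reticulum that was named as a putative homeodomain transcription factor and is abundant in testis. It lies on the plus strand at chr3:103968110-104024598 (ENSMUSG00000058388.14, 56.5 kb). Input listed 86 pairs and H3K27me3-RADIP 11, a log2 ratio of -3.00 (-4.05 to -2.09). From upstream to downstream its Input bins held 12, 17, 13, 30 and 14 pairs. The bin of 13 alone was listed in H3K27me3-RADIP, with 11 pairs, whereas the bin of 30 pairs next to it, chr3:104000001-104025000 (q-value 6.77e-18), was not. Those 2 bins are next to each other and both lie in the gene.

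*Mei4* encodes a partner of REC114 that is needed for the DNA double-strand breaks of meiosis. Its gene, chr9:81863670-82206007 on the plus strand (ENSMUSG00000043289.12, 342 kb), had 61 Input pairs and 8 H3K27me3-RADIP pairs, for a log2 ratio of -2.96 (-4.24 to -1.89). The 6 Input bins were even, with 9 to 11 pairs each, and all lay inside the gene. One of them, with 10 Input pairs, held the 8 pairs of H3K27me3-RADIP.

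*Ythdc1* encodes the nuclear YTH-domain protein that binds N6-methyladenosine in RNA, and acts in splicing, export and chromatin regulation. It lies on the plus strand at chr5:86804221-86836659 (ENSMUSG00000035851.14, 32.4 kb). Input listed 62 pairs, 27 in chr5:86800001-86825000 (q-value 6.25e-15) and 35 in chr5:86825001-86850000 (q-value 4.81e-21), and H3K27me3-RADIP listed none. These were the fullest bins of any member without listed pairs in H3K27me3-RADIP. No pair was over 31.9 kb, and the median distance was 5.23 kb, the shortest of the 9. The lncRNA *Gm43055* overlaps the 5′ part of the gene on the same strand, and tags there could be given to either name. All 27 *Gm43055* pairs in Input and all 8 in H3K27me3-RADIP had their RNA tags inside *Ythdc1*. Both names together had 89 listed Input pairs and 8 listed H3K27me3-RADIP pairs, the latter all of *Gm43055*.

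*Wnk3* encodes a with-no-lysine kinase that regulates the Na-K-Cl and K-Cl cotransporters. Its gene is X-linked, at chrX:151198078-151320152 on the plus strand (ENSMUSG00000041245.13, 122 kb). The 60 Input pairs lay in 5 bins with 17, 12, 12, 11 and 8 pairs from the gene start onward, and none was listed in H3K27me3-RADIP. Over the X chromosome as a whole, 222 pcRNAs were found in both libraries with a median log2 ratio of -0.41, and 42.8% had a ratio of -0.5 or lower. On the autosomes the medians ran from -0.21 to 0.13 and the shares from 16.3% to 32.6%. The part of this chromosome-wide lower level in the *Wnk3* value was not tested.

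*Rasa1* encodes p120 RasGAP, which stimulates GTP hydrolysis by Ras and is known for its role in blood vessel development. On the minus strand at chr13:85214780-85289130 (ENSMUSG00000021549.14, 74.4 kb), it had 57 pairs in Input, in consecutive bins of 10, 11, 18 and 18 pairs from the gene start to beyond its end, and no listed pair in H3K27me3-RADIP. No other RNA was listed in those bins in either library, and H3K27me3-RADIP listed no RNA tag and no DNA tag of any name within the gene. The longest distance was 64.7 kb.

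*Hspa14* encodes a member of the HSP70 family that works with a J-domain partner at the ribosome. It is the shortest gene of the set, on the minus strand at chr2:3488850-3512814 (ENSMUSG00000109865.1). Its 48 Input pairs were spread over 3 adjacent bins, with 23 pairs at the 3′ side of the gene (q-value 2.41e-12), 16 at its start and 9 upstream, and H3K27me3-RADIP listed none. Another annotated gene, *Gm45902*, overlaps the 5′ part of *Hspa14* on the same strand. It had no listed pair in either library, and 15 of the 48 *Hspa14* tags lay within its span.

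**Figure D3:**
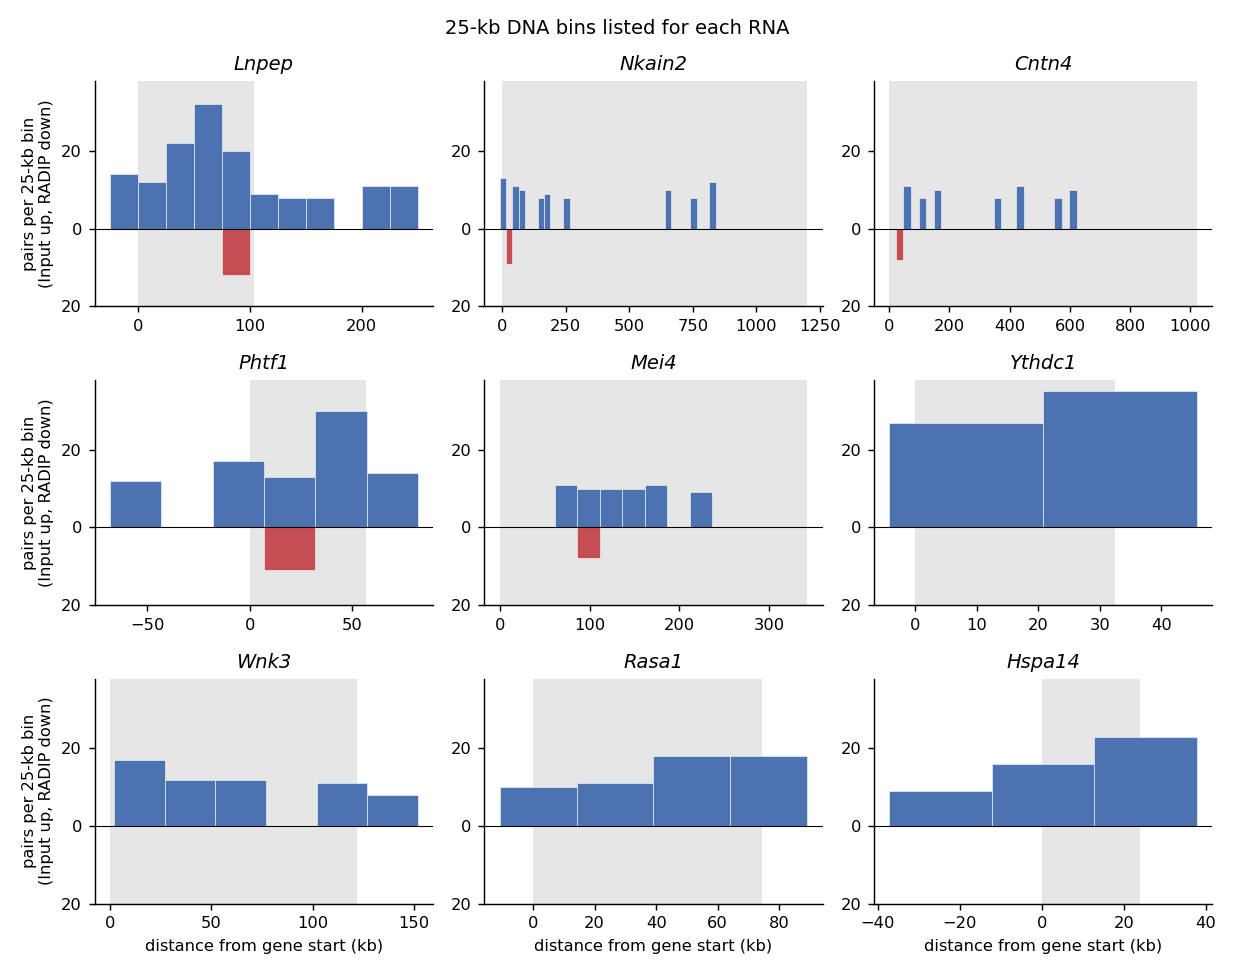
Pairs per 25-kb DNA bin (vertical axis, Input upward in blue, H3K27me3-RADIP downward in red) against the distance of the bin from the gene start in kb (horizontal axis, different for each gene), with the gene in grey. Input bins cover or flank each gene, and 5 genes have a single H3K27me3-RADIP bin of 8 to 12 pairs.

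RNA tags of the members came mostly from introns. By the region labels in the deposited tables, 560 of 676 Input tags were intronic (82.8%, Wilson interval 79.8 to 85.5), compared with 88.9% for all pcRNA pairs in Input and 82.8% for the 1993 pcRNAs with 48 to 147 Input pairs, the range of the members. In H3K27me3-RADIP, 43 of 48 were intronic (89.6%, 77.8 to 95.5), against 89.6% for all pcRNAs. The members differed widely among themselves. All 66 *Cntn4* tags in Input were intronic, as were 87 of 89 for *Nkain2* and 59 of 61 for *Mei4*. *Ythdc1* had the lowest share, 31 of 62 (interval 37.9% to 62.1%), with 19 further tags in exons outside coding sequence and untranslated regions. *Lnpep* had 14 tags in the 5′ untranslated region and 17 in the 3′ untranslated region among its 147. Coding sequence held 9 of 60 tags for *Wnk3*, 9 of 57 for *Rasa1* and 6 of 48 for *Hspa14*.

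The spread of tags along the gene differed between the members. *Nkain2* had 59 of 89 Input tags in the 5′-most 25% of its length, and all 9 tags of H3K27me3-RADIP lay there. For *Cntn4* the 4 equal parts of the gene from 5′ to 3′ held 26, 22, 14 and 4 tags in Input, and the first held all 8 of H3K27me3-RADIP. *Mei4* had 16, 30, 12 and 3 tags in Input, the first of them 27.9 kb past the gene start, and 3, 5, 0 and 0 in H3K27me3-RADIP. *Lnpep* had 70, 25, 20 and 32 in Input but 2, 1, 4 and 5 in H3K27me3-RADIP. The 4 RNAs without listed pairs in H3K27me3-RADIP had tags in each of the 4 parts in Input, for example 15, 11, 11 and 11 for *Hspa14* and 17, 12, 9 and 19 for *Rasa1*.

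**Figure D4:**
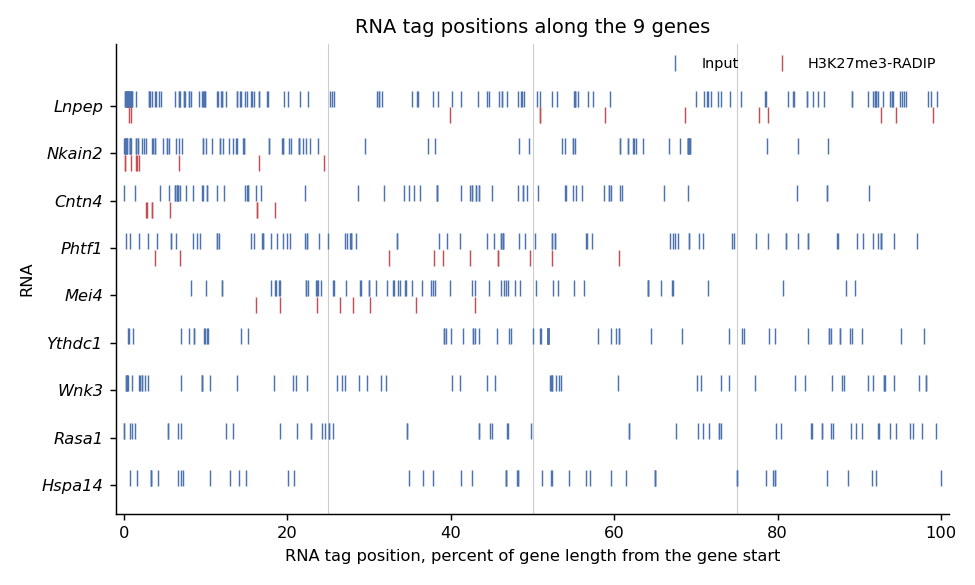
Position of each RNA tag along its gene (horizontal axis, percent of the gene length from the start), for each of the 9 RNAs in Input (blue ticks) and H3K27me3-RADIP (red ticks), with grey lines between its 4 equal parts. *Nkain2* has 59 of 89 Input tags in the first part, and *Hspa14* has 15, 11, 11 and 11 tags in its 4 parts.

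Most tags were at positions of their own. Of the 676 Input pairs, 45 repeated the RNA and DNA tag positions of another (6.66%), compared with 6.75% of all pcRNA pairs. The most frequent RNA tag position held 2 or 3 pairs in 8 of the 9 RNAs and 7 of 62 pairs in *Ythdc1* (11.3%, 5.58 to 21.5). Among the 1993 pcRNAs of like pair number the leading position held a median of 3.13% of the pairs, with a 95th percentile of 5.71%. The reference sequences (GRCm38.p6, the mm10 build, transcribed strand) at the leading positions with 3 or more pairs are shown because no single position of these RNAs held more pairs. For *Lnpep* and *Phtf1*, 4 and 2 positions tied, and the one with the lowest coordinate is given.
Ythdc1 (chr5:86821036-86821059): ctgatacatcggaacatcgctggg
Lnpep (chr17:17567802-17567825): gatctgatgccctcttctgatgtc
Cntn4 (chr6:106068629-106068652): caattcagtccctgaggttggatg
Phtf1 (chr3:103994310-103994333): agcatttgtggccacagtatcatg

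The *Ythdc1*, *Cntn4* and *Phtf1* sequences each match the 21 chromosomes at a single place, whereas the *Lnpep* sequence, which lies in a masked repeat, matches at 12. The 3 *Cntn4* pairs shared 1 DNA position, and the 3 *Phtf1* pairs had 2. With positions within 10 bases joined, the fullest *Lnpep* site was not the one printed. It held 7 of 147 tags (4.76%) in the 5′ untranslated region, at chr17:17624607-17624634, with 6 DNA positions. At *Ythdc1* the 7 pairs had 7 different DNA positions. With positions within 10 bases joined, 11 of its 62 tags (17.7%) began at 3 adjacent bases, 7 at the first, 3 at the second and 1 at the third, and they joined 9 DNA positions from 0.029 to 16.8 kb away. The 3 tags at the second base shared a DNA position 0.029 kb away. These tags lie in an intron of 565 bases, 190 bases before the next exon, in the stretch of the intron printed here from the reference (chr5:86820952-86821251, plus strand), where capitals mark the bases covered by the 11 tags.
Ythdc1 intron: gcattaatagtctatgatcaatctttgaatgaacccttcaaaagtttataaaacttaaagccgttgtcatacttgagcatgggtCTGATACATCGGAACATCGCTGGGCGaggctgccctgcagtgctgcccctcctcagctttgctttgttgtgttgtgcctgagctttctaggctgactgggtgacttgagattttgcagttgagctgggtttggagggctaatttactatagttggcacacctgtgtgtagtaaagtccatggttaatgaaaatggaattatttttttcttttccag

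The start regions of the 9 genes were compared in RefSeq promoter sequences (GRCm38.p6, 300 bases, from 250 before to 50 after a start), taking for genes with more than 1 start the one with the most CG dinucleotides. All 9 matched by symbol. The dinucleotide CG occurred 2 times in *Wnk3*, 12 in *Cntn4*, 16 in *Mei4*, 25 in *Phtf1* and *Hspa14*, 30 in *Lnpep* and *Rasa1*, 35 in *Ythdc1* and 43 in *Nkain2*. Over the 7323 pcRNAs of Input with a RefSeq promoter the median was 23, with an interquartile range of 16 to 32. As many as 43 were found in 7.35% of them, and as few as 2 in 2.17%. The start used for *Cntn4* lies 441282 bases inside the GENCODE gene. The 2 extremes are shown, *Nkain2* and *Wnk3*, with each CG in capitals, since CG-rich promoters are where Polycomb complexes are known to be recruited.
Nkain2 (chr10:32889866-32890165, minus strand): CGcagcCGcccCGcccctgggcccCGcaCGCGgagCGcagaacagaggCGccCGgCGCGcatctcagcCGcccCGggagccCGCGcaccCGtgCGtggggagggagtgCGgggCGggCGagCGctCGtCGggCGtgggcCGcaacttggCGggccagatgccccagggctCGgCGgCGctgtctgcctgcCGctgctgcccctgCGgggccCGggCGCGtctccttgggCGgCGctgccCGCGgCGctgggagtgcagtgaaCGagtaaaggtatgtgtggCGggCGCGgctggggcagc
Wnk3 (chrX:151197828-151198127, plus strand): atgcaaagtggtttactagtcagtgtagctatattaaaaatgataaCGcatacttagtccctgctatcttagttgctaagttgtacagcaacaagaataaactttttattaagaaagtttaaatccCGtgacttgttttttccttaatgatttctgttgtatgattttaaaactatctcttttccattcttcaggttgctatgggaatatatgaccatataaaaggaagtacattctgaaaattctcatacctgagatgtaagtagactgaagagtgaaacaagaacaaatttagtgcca

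The CG counts of the 9 promoters thus ran from far below to far above the median of pcRNAs. H3K27me3 itself at these promoters was not analysed here.

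Of the 676 Input pairs, 76 were over 100 kb apart (11.2%, 9.08 to 13.8), compared with 36.4% of all pcRNA pairs, and the median distance was 15.7 kb against 44.4 kb for all pcRNA pairs in *cis*. The pcRNAs with 48 to 147 Input pairs had 6.63% of their pairs over 100 kb and a median distance of 11.3 kb. Their median gene length was 57.6 kb. Measured from the DNA tag to the edge of the gene instead of to the RNA tag, 3.11% of the members' pairs were over 100 kb. In H3K27me3-RADIP, 5 of 48 pairs were over 100 kb (10.4%, 4.53 to 22.2), 3 of *Cntn4* and 2 of *Nkain2*, compared with 43.7% of all pcRNA pairs. *Lnpep* (31 pairs), *Nkain2* (19), *Cntn4* (13) and *Mei4* (8) supplied most of those in Input, while *Ythdc1*, *Rasa1* and *Hspa14* had none. Every pair of every member joined RNA and DNA of the same chromosome. The median gene length of pcRNAs listed in Input was 42.9 kb, and 99.7% of these genes are shorter than *Nkain2* and 28.0% are shorter than *Hspa14*.

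Other RNAs in the same DNA bins were not used to choose the members. In the 51 Input bins of the members, the other RNAs had 170 Input pairs and 154 H3K27me3-RADIP pairs, which is a log2 ratio of -0.17 (-0.50 to 0.15), compared with 0.09 over all pairs of other RNAs in the tables. In bins outside the member's own gene alone it was 0.29. Of the 14 combinations of another RNA with such a bin in Input, 6 were not listed in H3K27me3-RADIP, or 42.9%, beside 24.2% of all combinations of Input. The 24.2% covers combinations of every size. For pcRNAs the share listed again was 48.8% at 7 to 9 pairs, 67.3% at 10 to 12 and 98.9% at 20 or more. The 14 were not compared by size, so nothing is read from the 42.9%. Bins of *Nkain2*, *Cntn4*, *Mei4* and *Rasa1* held no other RNA in either library, so the comparison covers 5 members.

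*Riok2*, which encodes a kinase of ribosome maturation, had 31 pairs in the *Lnpep* bins in Input and 32 in H3K27me3-RADIP, where *Lnpep* had 147 and 12. In the farthest downstream *Lnpep* bin, chr17:17375001-17400000, *Riok2* had 22 pairs and *Lnpep* 11 in Input, and in H3K27me3-RADIP the bin was listed with 22 pairs of *Riok2* and none of *Lnpep*. In the *Phtf1* bins *Magi3*, a scaffold gene that overlaps the 3′ end of *Phtf1* on the opposite strand, had 30 and 36 pairs, and *Rsbn1*, upstream on the same strand, 11 and 8. The *Phtf1* bin of 30 Input pairs held 13 pairs of other RNAs in Input and 18 in H3K27me3-RADIP. *Fam107b* had 28 and 26 pairs in the *Hspa14* bins and *Camk1d*, a calcium/calmodulin-dependent kinase gene, 14 and 22. Of the 51 Input bins, 11 held another RNA in Input and 11 in H3K27me3-RADIP, and 8 of them in both. The 3 bins with another RNA in Input alone were the fullest *Lnpep* bin, with 9 such pairs, the upstream *Phtf1* bin, with 9, and the fullest *Hspa14* bin, with 10.

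*Gm43055*, the overlapping lncRNA, was the one other RNA in the *Ythdc1* bins, with 27 and 8 pairs (log2 ratio -1.79, -3.14 to -0.61). In the *Wnk3* bins *Huwe1*, a ubiquitin ligase gene, had 13 pairs and *Apex2*, a DNA repair nuclease gene, 8 pairs in Input, and neither was listed there in H3K27me3-RADIP. *A230072E10Rik*, antisense to the end of *Wnk3*, had 8 and 7 pairs, and *Fam120c* was listed in these bins with 15 pairs in H3K27me3-RADIP alone. Over all its bins *Fam120c* had 60 Input and 25 H3K27me3-RADIP pairs, a log2 ratio of -1.30. No tag of any other name on the strand of the gene lay within *Lnpep*, *Nkain2*, *Cntn4*, *Phtf1*, *Mei4*, *Wnk3*, *Rasa1* or *Hspa14* in the listed pairs of either library.

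**Figure D5:**
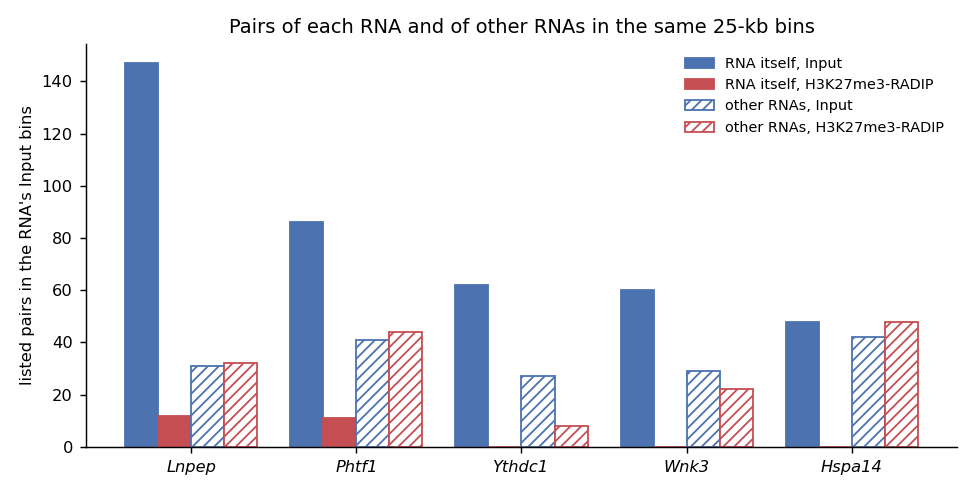
Listed pairs (vertical axis) of the RNA itself (filled bars) and of other RNAs (hatched bars) in the 25-kb bins that *Lnpep*, *Phtf1*, *Ythdc1*, *Wnk3* and *Hspa14* contact in Input, in Input (blue) and H3K27me3-RADIP (red). In the *Hspa14* bins the RNA itself has 48 and 0 pairs and other RNAs have 42 and 48, whereas in the *Ythdc1* bins other RNAs have 27 and 8.

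A wider view was taken from pairs whose RNA tag lay within 500 kb of each gene. RNAs whose genes reach beyond that window are counted in part: *Huwe1* had 1001 and 641 pairs in all, a log2 ratio of -0.68. Around *Hspa14* 5 RNAs had 583 and 601 pairs (log2 ratio 0.01, -0.16 to 0.18), and around *Lnpep* 3 RNAs had 55 and 63. Around *Phtf1* 7 RNAs had 290 and 264 pairs, and around *Nkain2* 3 RNAs had 79 and 67. In these sums *Olfml3* (9 Input pairs) and *Gm43696* (8) near *Phtf1* and *Hddc2* (8) near *Nkain2* were not listed in H3K27me3-RADIP and count as 0. The reverse holds for *Lix1* near *Lnpep*, which had 9 H3K27me3-RADIP pairs and was not listed in Input. The sum was lower around *Wnk3*, where 7 RNAs had 569 and 343 pairs (-0.76, -0.96 to -0.57), with *Huwe1* at 251 and 125 and *Fgd1* at 165 and 106, whereas *Gnl3l* had 35 and 42 and *Tsr2* 26 and 29. *Fam120c* had 60 and 25 pairs there, *Phf8* 24 and 9 and *A230072E10Rik* 8 and 7. Around *Cntn4*, *Crbn*, which encodes the substrate receptor cereblon, had 27 and 8 pairs, and the other RNAs with Input pairs, *Trnt1* with 8 and *Gm34933* with 6, were not listed in H3K27me3-RADIP. No other RNA was listed within 500 kb of *Mei4* or *Rasa1* in either library. These surroundings were chosen after the data were seen.

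Related genes were listed by function, and their values lay on both sides of 0. Of 93 genes in 9 lists, 72 were listed in at least 1 library and 61 in both, with a median log2 ratio of -0.12, compared with -0.01 for all pcRNAs. Of the 61, 19 had a ratio of -0.5 or lower (31.1%, beside 21.9% of all pcRNAs), 6 had one of 0.5 or higher (9.84%, beside 20.2%) and 36 lay between. Another 2 were found in Input alone and 9 in H3K27me3-RADIP alone. None of the lists was tested as a set. Unlisted bins count as 0 in the ratios and intervals of these genes, which therefore leave out the listing limit.

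In the list of *Cntn4*, of 12 contactins and partners 11 were listed and 7 were in both libraries. *Cntn5* had 63 and 18 pairs (-1.84, -2.68 to -1.07) and *Cntnap2*, a neurexin-family gene, 149 and 82 (-0.89, -1.30 to -0.50). *Cntn1* had 15 and 8 pairs and *Ptprz1* 14 and 9, with intervals that include 0. *Cntn3* was listed in Input alone with 34 pairs, and *Cntn6*, *Cntnap1* and *Chl1* in H3K27me3-RADIP alone with 7, 11 and 8. *Ptprg*, a receptor phosphatase that binds contactins, had the most pairs of the list, 5472 and 5839, and a log2 ratio of 0.06. In the list of *Nkain2*, *Nkain3* had 27 and 8 pairs (-1.79, -3.14 to -0.61) and the pump subunit *Atp1b1* 65 and 39 (-0.77, -1.38 to -0.17), whereas *Atp1b3*, with 123 and 92, had a ratio of -0.45. *Nkain1* had 31 and 37 pairs (0.22), *Atp1b2* was listed in H3K27me3-RADIP alone with 7, and *Nkain4* in neither.

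Among 18 genes of the m6A machinery, the writers, readers and erasers of the mark that YTHDC1 binds, 15 were in both libraries, 6 at -0.5 or lower and none at 0.5 or higher. The shares were 40% and 0%, beside 21.9% and 20.2% of all pcRNAs, and the list was not tested. The writer-complex genes *Wtap* (38 and 18 pairs, -1.11), *Zc3h13* (86 and 46, -0.93), *Rbm15b* (39 and 18, -1.15) and *Virma* (49 and 30, -0.74) were lower, as were the readers *Ythdf3* (101 and 58, -0.83) and *Ythdc2* (22 and 12, -0.91). The interval of *Ythdc2* reached 0.17. The demethylase *Fto*, with the most pairs of the list, had 4539 and 6028, a ratio of 0.38.

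In the WNK pathway 4 of the 10 genes in both libraries had ratios of -0.5 or lower, among them *Oxsr1*, a kinase activated by WNKs (13 and 8, -0.73), *Slc12a2*, the Na-K-Cl cotransporter (64 and 41, -0.67), and *Cul3*, part of the ligase that degrades WNKs (182 and 127, -0.55). *Wnk2* was higher, with 61 and 102 pairs (0.71, 0.24 to 1.19), and *Wnk1*, the most listed, had 867 and 660 (-0.43). The interval of *Oxsr1* included 0. Of the 10 genes, 40% were at -0.5 or lower and 10% at 0.5 or higher, beside 21.9% and 20.2% of all pcRNAs. The paralogs of *Wnk3* thus had values on both sides of 0.

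In the list of meiotic break genes, the partners of *Mei4*, *Rec114* with 10 and 30 pairs (1.55, 0.48 to 2.75) and *Mei1* with 8 and 25 (1.61, 0.42 to 2.97), were higher. *Ankrd31* was listed in Input alone with 9 pairs. *Hormad2*, an axis protein gene with the most pairs of the list, had 225 and 196.

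For *Rasa1*, the one Ras GTPase activator of 7 in both libraries at -0.5 or lower was *Rasa2*, with 87 and 58 pairs (-0.62, -1.12 to -0.12). *Dab2ip*, the most listed with 720 and 1027, had 0.48. The HSP70 list of *Hspa14* had *Hspa5*, the chaperone of the endoplasmic reticulum, at 57 and 37 pairs (-0.66, -1.29 to -0.03), *Hspa12a* at 67 and 119 (0.80, 0.35 to 1.25) and *Hspa4*, the most listed, at 343 and 284 (-0.30). Aminopeptidases related to *Lnpep* were listed with *Anpep* at 8 and 13 pairs (0.67) and *Rnpepl1* at 11 and 18 (0.68), both with intervals that include 0, and *Aopep*, the most listed, at 886 and 836 (-0.12). *Phtf2*, the sole paralog of *Phtf1*, had 298 and 265 pairs (-0.20, -0.45 to 0.04).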

How the data were processed

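The deposited tables hold 1 line per RNA–DNA pair, and their numerical column is a q-value. Per the labels and the methods, the authors separated RNA and DNA tags, mapped them to mm10 (the submitters' processing notes name STAR 2.5.0a and BWA 0.7.15-r1140), fitted a modified CHiCANE negative binomial model with *trans* reads as background, adjusted p-values by Benjamini–Hochberg and removed pairs with a q-value above 0.1. Libraries were merged by the authors, 8 per condition, so no test was made.

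Lines were counted per RNA name and 25-kb bin of the DNA tag centre. Starts count from 0: bins read that way had 1 q-value per combination, and read from 1, 30 Input combinations had several. Log2 ratios used TMM factors over pcRNAs in both libraries, trimmed by 30% on ratios and 5% on levels, with exact conditional intervals. The script was tested on simulated data. Gene positions are from GENCODE M21 (mm10) and sequences from GRCm38.p6. Coordinates in the text count from 1. Tables were handled in pandas 2.3.3 and intervals computed in scipy 1.17.1, under Python 3.11.15.

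The members, the related-gene lists and the rules were chosen with earlier results of these data known. Named were the 9 RNAs, the most listed gene of each related list and those past a log2 ratio of 0.5 in size, the RNAs sharing the members' bins and the RNAs just outside the choice. *Fam120c*, *Nkain1*, *Atp1b2*, *Nkain4* and the RNAs within 500 kb of the genes were named after their values were seen. The values of some genes of the related lists are not reported here.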

Additional observations from a re-analysis of the deposited data

How the results depend on the processing

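No paired analysis was possible because each condition is deposited as 1 merged table. Leaving out a library could not be run for the same reason. All 9 members were lower or unlisted under each of these alternatives: library totals, TMM over all RNA names, a q-value of at most 0.01, repeated tag positions counted once, a log2 ratio limit of 1 and gene identifiers. The members were chosen by these same counts, so this outcome was largely fixed by the choice. It lends no support to the difference. With every unlisted Input bin filled to the limit of its RNA, 7 of the 9 were past -0.5, and with 8 pairs in each for every RNA 6 were. Both settings were added with the data in view. The share of pairs over 100 kb moved from 11.2% to 8.80% with a q-value of at most 0.01 and to 3.11% when the distance was measured to the edge of the gene. The log2 ratio of neighbouring RNAs was 0.29 in bins outside the member's own gene, and -0.44 with a q-value of at most 0.01. It was near 0 (-0.00) without *Gm43055*, which was added with the data in view. Of the related genes 6, not 19, had a lower value at a log2 ratio limit of 1. The remaining values stayed within their intervals, or within 1.5 times for counts. The causes of these moves were not tested. Depth enters through the listing limit of 7 to 8 pairs per bin: bins with fewer pairs cannot be seen in either library.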
